A study of Homo sapiens with 30 samples.

Results

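The matrix metalloproteases (MMPs), the ADAMTS proteases and their tissue inhibitors (TIMPs) were followed in lineages derived from MDA-MB-231, an established human breast cancer cell line of mesenchymal character. Members were the rows of the count tables whose symbol is MMP, ADAMTS or TIMP followed by a number, which gave 45 genes of 26475 rows in each table: 22 MMPs, 19 ADAMTS genes and 4 TIMPs. Of these, 23 had a mean of at least 1 CPM (counts scaled to the TMM-normalized library size) in at least 1 of the 10 groups and are described here: 9 MMPs, 10 ADAMTS genes and 4 TIMPs. MMP11 (3.64 CPM in its highest group), ADAMTS17 (3.60 CPM) and MMP17 (3.49 CPM) lay closest above that minimum, and ADAMTS13 (0.968 CPM), MMP28 (0.948 CPM) and ADAMTS8 (0.675 CPM) closest below it. The 22 members left out include ADAMTS10, MMP26 and MMP27, which had no counts in any library.

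The 30 libraries formed 10 groups of 3. Lineages 22, 35 and 45 were each grown alone in RPMI for about 24 hours ("in isolation") or held for 15 days in a 6-member co-culture that passed through a bottleneck every 3 days, then separated by cell sorting. Their 6 groups share a count table. Lineages 03, 10 and 13 and the sample named Pop were grown alone only, and their 4 groups form the other table. The labels class all 10 groups as wild-type lineages derived from MDA-MB-231, and the sources do not say what Pop is. All cells grew in 10% dialyzed serum with 2 mM glutamine. Samples from co-culture differ from those in isolation also in time in culture, sorting and RNA extraction kit, and these cannot be told apart from the co-culture itself. Nothing states that replicates were separate cultures, so the p-values measure only the spread between these libraries.

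MMPs are zinc-dependent enzymes that cut collagens and other matrix proteins. They are made as inactive precursors, and some are secreted while others, the membrane-type MMPs, stay on the cell surface. ADAMTS proteases are secreted relatives with thrombospondin repeats that cut proteoglycans, trim procollagens or act on fibrillin-rich matrix. TIMPs bind the active site of MMPs and, with differing strength, of ADAM and ADAMTS enzymes; in breast cancer cells the balance of these proteins is a classic subject of work on invasion.

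Library totals ran from 28088400 to 38843400 counts. The MDA-MB-231 mesenchymal marker genes (7 genes) summed to 7146 to 11670 CPM and none fell below 1 CPM in any group. The 9 luminal epithelial markers summed to 958 to 3265 CPM, with 2 or 3 of the 9 below 1 CPM in each group. The 6 endothelial markers summed to 7.20 to 152 CPM and the 7 leukocyte markers to 45.2 to 361 CPM. Within these lists, the oestrogen receptor gene ESR1 and the endothelial cadherin gene CDH5 stayed below 0.1 CPM in all groups. The libraries labelled lineage 35 from co-culture correlated less with isolated lineage 35 (mean r = 0.924 over log2 CPM of the tested genes) than with isolated lineage 45 (0.964) or isolated lineage 22 (0.950), so they stand apart from their label. The 22 and 45 libraries from co-culture correlated at 0.962 and 0.970 with their own isolated lineage, and the 3 co-culture groups correlated with each other at 0.978 to 0.984. Isolated lineage 35 correlated at 0.921 to 0.942 with every other group of its table. Replicate 1 of Pop also stood apart, with a chi-square per gene of 51.5 and 70.6 against its other replicates, which differed from each other by 6.18. Single libraries stood apart less strongly in other groups. Examples from co-culture are replicate 3 of lineage 22 (44.5 and 32.8 against 15.4), replicate 1 of lineage 45 (35.4 and 44.6 against 18.4) and replicate 1 of label 35 (32.2 and 30.1 against 10.0). Replicate 3 of lineage 13 is another (25.8 and 26.75 against 8.27). In bulk RNA, a lower level in every cell and fewer cells that express a gene cannot be told apart.

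Scaled to the length of the longest coding transcript, 4 members had the highest levels in every group: TIMP1, TIMP2, TIMP3 and MMP14. In isolated lineage 22, TIMP1 reached 461 CPM per kb, TIMP2 215, MMP14 138 and TIMP3 81.0. TIMP1 ranked highest per kb in all 7 isolated groups and in lineage 45 from co-culture. In lineages 22 and 35 from co-culture TIMP2 ranked above it, at 191 ± 11.4 against 144 ± 18.8 CPM per kb in lineage 22 (SD, n = 3) and at 137 ± 10.6 against 132 ± 11.7 in lineage 35, where the 2 means differ by less than their SDs. TIMP4 stayed at or below 2.30 CPM per kb in all groups.

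TIMP1 fell in co-culture under all 3 lineage labels. TIMP1, a secreted inhibitor that also binds proMMP9, lies on chromosome X at 47582313-47586789 (GRCh38, plus strand) inside SYN1, which is read from the opposite strand. It stood at 503, 504 and 509 CPM in the 3 libraries of isolated lineage 22 and at 152, 141 and 181 CPM in those from co-culture. In lineage 35 the values were 297, 281 and 341 CPM in isolation and 155, 130.4 and 148 CPM from co-culture, and in lineage 45 490.1, 465 and 423 against 159.7, 152 and 175 CPM. In each lineage every co-culture library lay below every isolation library, and the 9 co-culture libraries lay between 130.4 and 181 CPM whichever lineage they came from. The log2 fold change was -1.68 ± 0.0996 (SE), adjusted p = 1.21e-10 in lineage 22, -1.08 ± 0.0983 (SE), adjusted p = 7.52e-09 in lineage 35 and -1.50 ± 0.0991 (SE), adjusted p = 9.10e-10 in lineage 45 (edgeR quasi-likelihood test, Benjamini-Hochberg adjusted over all 14570 genes tested, as are all adjusted p-values for these lineages). The log2 fold change in lineage 22 minus that in lineage 35 was -0.59 ± 0.14 (adjusted p = 0.0013, edgeR).

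TIMP2 and TIMP3 moved differently. TIMP2, which takes part with MMP14 in the activation of proMMP2, stood at 344, 319 and 348 CPM in isolated lineage 35 and at 531, 458 and 515 CPM from co-culture, with no overlap (log2 fold change 0.57 ± 0.0806 (SE), adjusted p = 3.44e-06, edgeR). In lineage 22 its values were 782, 783 and 790.5 CPM in isolation and 678, 672 and 747 CPM from co-culture, and in lineage 45 468, 452 and 441 against 451, 524 and 551 CPM. Neither of these differences passed the test (log2 fold change -0.17 and 0.16). TIMP3, the inhibitor bound to matrix that also blocks ADAM and ADAMTS enzymes, went from 389.8, 339 and 389 to 225, 222 and 298 CPM in lineage 22. Under label 35 it went from 112, 124 and 129 to 254, 195 and 247 CPM, and in lineage 45 from 192, 206 and 158 to 145, 148 and 170.1 CPM. TIMP3 thus fell in lineage 22 (-0.59 ± 0.12 (SE), adjusted p = 0.000553), rose under label 35 (0.93 ± 0.13 (SE), adjusted p = 2.46e-06) and had overlapping libraries in lineage 45 (-0.27, adjusted p = 0.0944, edgeR). The response under label 35 differed from that of lineage 22 by 2.86-fold (adjusted p = 7.03e-07) and from that of lineage 45 by 2.29-fold (adjusted p = 1.70e-05, edgeR). TIMP4 rose under label 35, from 1.26 to 2.504 CPM (0.98 ± 0.19 (SE), adjusted p = 0.000114, edgeR).

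**Figure D1:**
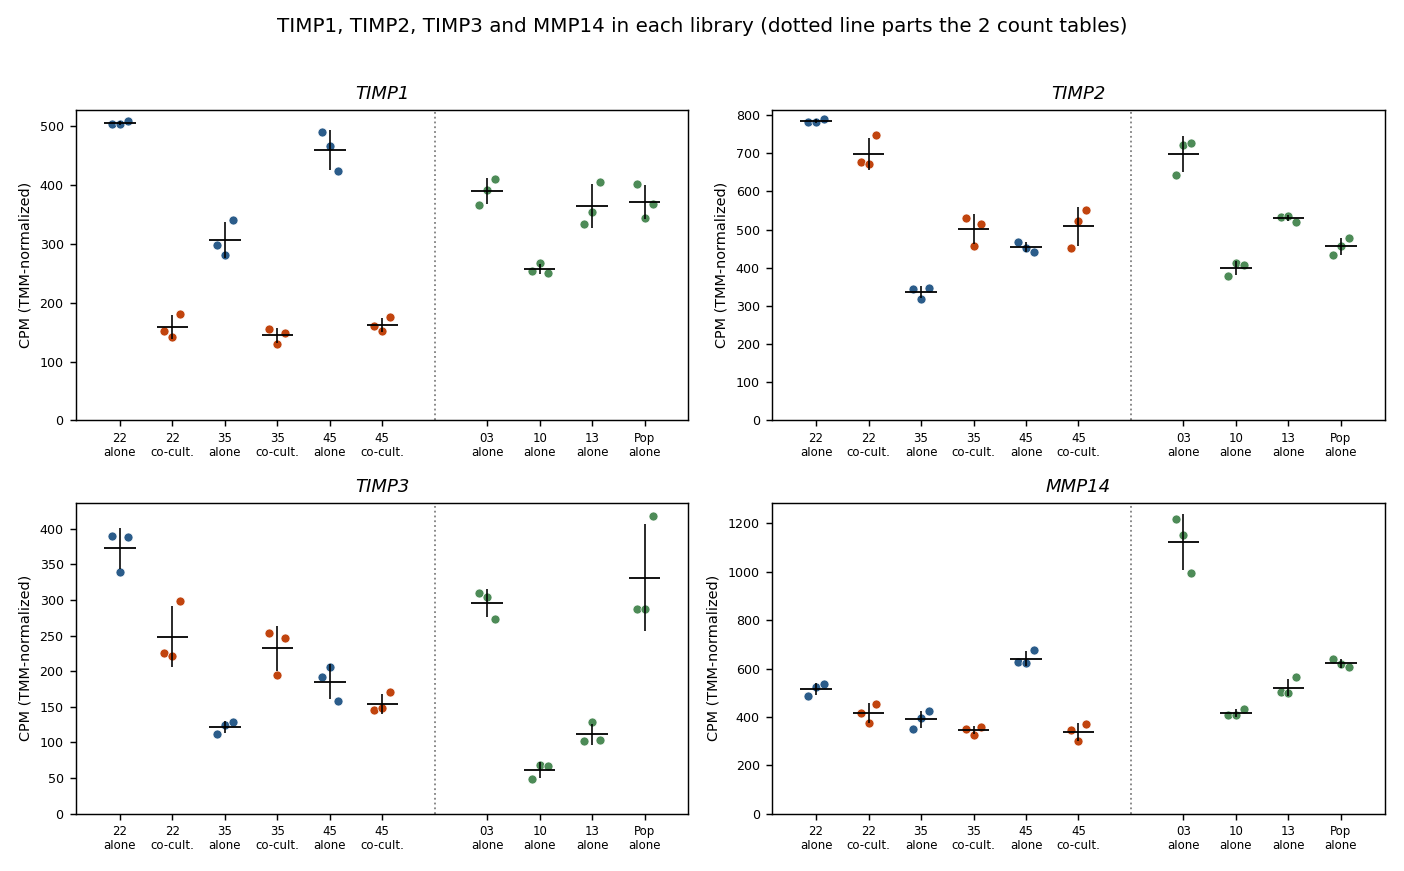
CPM (TMM-normalized, linear axis from 0) of TIMP1, TIMP2, TIMP3 and MMP14 in each of the 30 libraries by group, with the group mean as a horizontal bar and ± 1 SD as a vertical line (blue and orange, lineages 22, 35 and 45 alone and from co-culture; green, lineages 03, 10, 13 and Pop alone). TIMP1 is lower in all 9 co-culture libraries than in the isolated libraries of the same label, and TIMP3 is lowest among the 4 groups of the second table in lineage 10, at a mean of 61.1 CPM.

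The isolated groups of each table were further apart in TIMP3 than in TIMP1 or TIMP2, so its promoter is shown with that of MMP14, the protease of highest level. Both are the 250 bases before the start of the gene in RefSeq (GRCh38.p14), chr22:32801455-32801704 on the plus strand and chr14:22836335-22836584 on the plus strand, written 5′ to 3′ with GC boxes (GGGCGG or CCGCCC) in capitals.
TIMP3: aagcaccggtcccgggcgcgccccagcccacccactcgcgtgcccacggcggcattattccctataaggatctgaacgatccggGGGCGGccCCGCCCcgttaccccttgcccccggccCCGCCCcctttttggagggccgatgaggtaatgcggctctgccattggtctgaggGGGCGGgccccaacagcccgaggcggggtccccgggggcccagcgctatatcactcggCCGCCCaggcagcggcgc
MMP14: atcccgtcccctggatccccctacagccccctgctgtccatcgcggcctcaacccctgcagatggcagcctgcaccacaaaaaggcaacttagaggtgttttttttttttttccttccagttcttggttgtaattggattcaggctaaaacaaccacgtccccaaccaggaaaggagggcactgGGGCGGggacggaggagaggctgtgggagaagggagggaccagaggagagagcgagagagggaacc
The TIMP3 window holds 26 CpG dinucleotides and 5 GC boxes, and the MMP14 window 7 CpG dinucleotides and 1 GC box. The median over all 35116 promoters in the table is 11 CpG dinucleotides, and 42.6% of them hold a GC box on either strand. Promoters of 13 of the 23 described members were matched, and MMP1, MMP9 and ADAMTS1 are among those without a match. Windows of TIMP4, ADAMTS12, MMP15, ADAMTS3 and TIMP1 overlap GENCODE exons of their own gene most, by 250, 202, 188, 165 and 123 of 250 bases. None of the 13 holds the AP-1 motif, searched as TGAGTCA and, for the other strand, as TGACTCA, which 4.20% of all promoters hold. None holds the cyclic AMP response element TGACGTCA (1.65% of all promoters), or the TATA motif, searched as TATAAA and, for the other strand, as TTTATA (10.7%). With 13 windows and shares this low, these absences are no result about the members.

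The membrane-type MMPs split by lineage. MMP14 (MT1-MMP, chromosome 14 at 22836557-22849027), a surface collagenase, stood at 626, 622 and 676 CPM in isolated lineage 45 and at 344, 299 and 371 CPM from co-culture. In lineage 22 it went from 487, 522 and 536 to 417, 373 and 454 CPM, and under label 35 from 352, 394 and 424 to 352, 326 and 357 CPM. The groups overlap under label 35 only. MMP14 fell in lineage 45 (-0.92 ± 0.0919 (SE), adjusted p = 2.34e-07) and less in lineage 22 (-0.31 ± 0.0912 (SE), adjusted p = 0.00657), and the change under label 35 did not pass the test (-0.18, adjusted p = 0.0951, edgeR). The fall in lineage 45 exceeded that in lineage 22 by a factor of 1.53 (adjusted p = 0.00273, edgeR).

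MMP15 (MT2-MMP) moved the other way in the same lineages. Its libraries stood at 4.67, 4.29 and 3.77 CPM in isolated lineage 22 and 8.27, 7.74 and 8.85 CPM from co-culture, and at 2.83, 2.997 and 3.08 against 5.74, 6.11 and 6.48 CPM in lineage 45. Under label 35 they went from 8.07, 8.01 and 8.65 to 5.69, 5.33 and 4.89 CPM. No libraries overlap between isolation and co-culture within a lineage: MMP15 rose by 1.95-fold in lineage 22 (adjusted p = 9.76e-07) and by 2.06-fold in lineage 45 (adjusted p = 1.29e-06), and fell by a factor of 1.55 under label 35 (adjusted p = 5.64e-05, edgeR). MMP24 (MT5-MMP) rose under label 35 from 1.09 to 2.88 CPM (1.395 ± 0.24 (SE), adjusted p = 4.38e-05, edgeR). Its call as higher in lineage 45, from 1.43 to 2.17 CPM (0.60 ± 0.24 (SE), adjusted p = 0.0471, edgeR), was lost in 8 of 12 alternatives, among them leaving out any library of lineage 45 except isolation replicate 1 (log2 fold change 0.41 to 0.79, adjusted p up to 0.221). MMP17 (MT4-MMP) went from 1.55 to 2.27 CPM under label 35, with overlapping libraries (0.55 ± 0.22 (SE), adjusted p = 0.0351, edgeR). That call was lost with these 2 groups fitted alone, and without isolation replicate 2 or co-culture replicate 1 or 3 of label 35 (log2 fold change 0.36 to 0.71, adjusted p up to 0.201). MMP16 (MT3-MMP) had group means up to 7.86 CPM and passed the test in none of the 3 lineages.

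Among the secreted MMPs, MMP1 and MMP19 changed. MMP1, the interstitial collagenase that cuts fibrillar collagen, lies in the MMP gene cluster of chromosome 11 (102520508-102955734), where it is the only described member of 9. MMP1 stood at 0.387, 0.332 and 0.373 CPM in isolated lineage 35 and at 2.09, 4.47 and 4.69 CPM in the libraries so labelled from co-culture (3.36 ± 0.33 (SE), adjusted p = 5.77e-08, edgeR). In lineage 22 the values were 3.41, 4.42 and 4.18 CPM in isolation and 3.59, 3.78 and 4.57 CPM from co-culture, and in lineage 45 28.6, 19.3 and 24.99 against 25.6, 23.8 and 18.8 CPM. Both of those pairs of groups overlap (log2 fold change -0.01 and -0.10, adjusted p = 0.97 and 0.717, edgeR). Isolated lineage 45 held 66.3-fold more MMP1 than isolated lineage 35 (adjusted p = 6.19e-12) and 6.07-fold more than isolated lineage 22 (adjusted p = 4.04e-08, edgeR). MMP1 overlaps the pseudogene WTAPP1 on the opposite strand, and whether counting used strand is not given in the sources used here, which applies to each member that shares its locus with a gene on the other strand. TIMP2 also overlaps CEP295NL, a protein-coding gene on the same strand, which strand alone would not set apart.

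MMP19, a secreted protease of basement membrane components, stood at 7.43, 5.96 and 7.505 CPM in isolated lineage 22 and 3.93, 2.902 and 3.53 CPM from co-culture. In lineage 45 it went from 7.23, 6.75 and 7.34 to 4.19, 3.66 and 4.78 CPM, and under label 35 from 2.07, 1.97 and 2.27 to 4.11, 4.12 and 4.29 CPM. The isolated libraries of lineages 22 and 45 overlap and lie above those of lineage 35, while the 9 co-culture libraries lie between 2.90 and 4.78 CPM, with those of lineage 22 below those labelled 35. MMP19 fell in lineages 22 and 45 (log2 fold change -1.01 and -0.75) and rose under label 35 (0.99; adjusted p = 5.35e-06, 0.000206 and 7.59e-06, edgeR). MMP11, or stromelysin 3, had group means of 1.19 to 2.05 CPM in these 6 groups and passed the test in none of the 3 comparisons.

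ADAMTS1 and ADAMTS3 were close to absent in isolated lineage 35. ADAMTS1, a protease of versican and aggrecan, stood there at 0.226, 0.0831 and 0.249 CPM (18 counts in all) and at 9.42, 12.1 and 14.6 CPM in the libraries labelled 35 from co-culture. It stood at 10.4, 12.8 and 9.28 CPM in isolated lineage 22 and 8.87, 10.2 and 9.65 CPM from co-culture, and went from 32.4, 31.9 and 38.03 to 17.8, 17.6 and 22.6 CPM in lineage 45. Only in lineage 22 do the 2 groups overlap. The change under label 35 was 6.02 ± 0.27 (SE), adjusted p = 2.52e-13, and ADAMTS1 fell in lineage 45 (-0.82 ± 0.15 (SE), adjusted p = 0.000292, edgeR). ADAMTS3, a procollagen N-proteinase that also processes the lymphatic growth factor VEGFC, went from 0.258, 0.194 and 0.0622 to 3.43, 3.21 and 3.196 CPM under label 35 (4.23 ± 0.26 (SE), adjusted p = 2.34e-11) and from 4.28 to 2.42 CPM in lineage 45 (-0.82 ± 0.18 (SE), adjusted p = 0.000994, edgeR). The 35 and 22 libraries from co-culture overlapped in both genes and in MMP1.

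The endothelial and leukocyte marker lists rose with these gains under label 35, and the fibroblast list did not. The 7 fibroblast markers summed to 10.65 to 15.25 CPM in isolated lineage 35 and to 9.47 to 10.5 CPM from co-culture. The 6 endothelial markers summed to 7.20 to 8.26 CPM in isolated lineage 35 (5 of 6 below 1 CPM) and to 126 to 137 CPM from co-culture (3 of 6), with CDH5 below 0.1 CPM in both. Of that list, ESAM, PECAM1 and KDR rose (18.8-, 20.1- and 3.66-fold), and TEK and VWF did not pass the test (edgeR). The 7 leukocyte markers summed to 45.2 to 70.8 CPM and to 173 to 191 CPM (5 of 7 below 1 CPM in both), with CD3E and TYROBP below 0.1 CPM in both. In isolated lineages 22 and 45 the same endothelial list already summed to 99.4 to 128 CPM. The part of these differences, or of the resemblance of these libraries to isolated lineages 45 and 22, in the ADAMTS1, ADAMTS3 and MMP1 values was not tested.

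**Figure D2:**
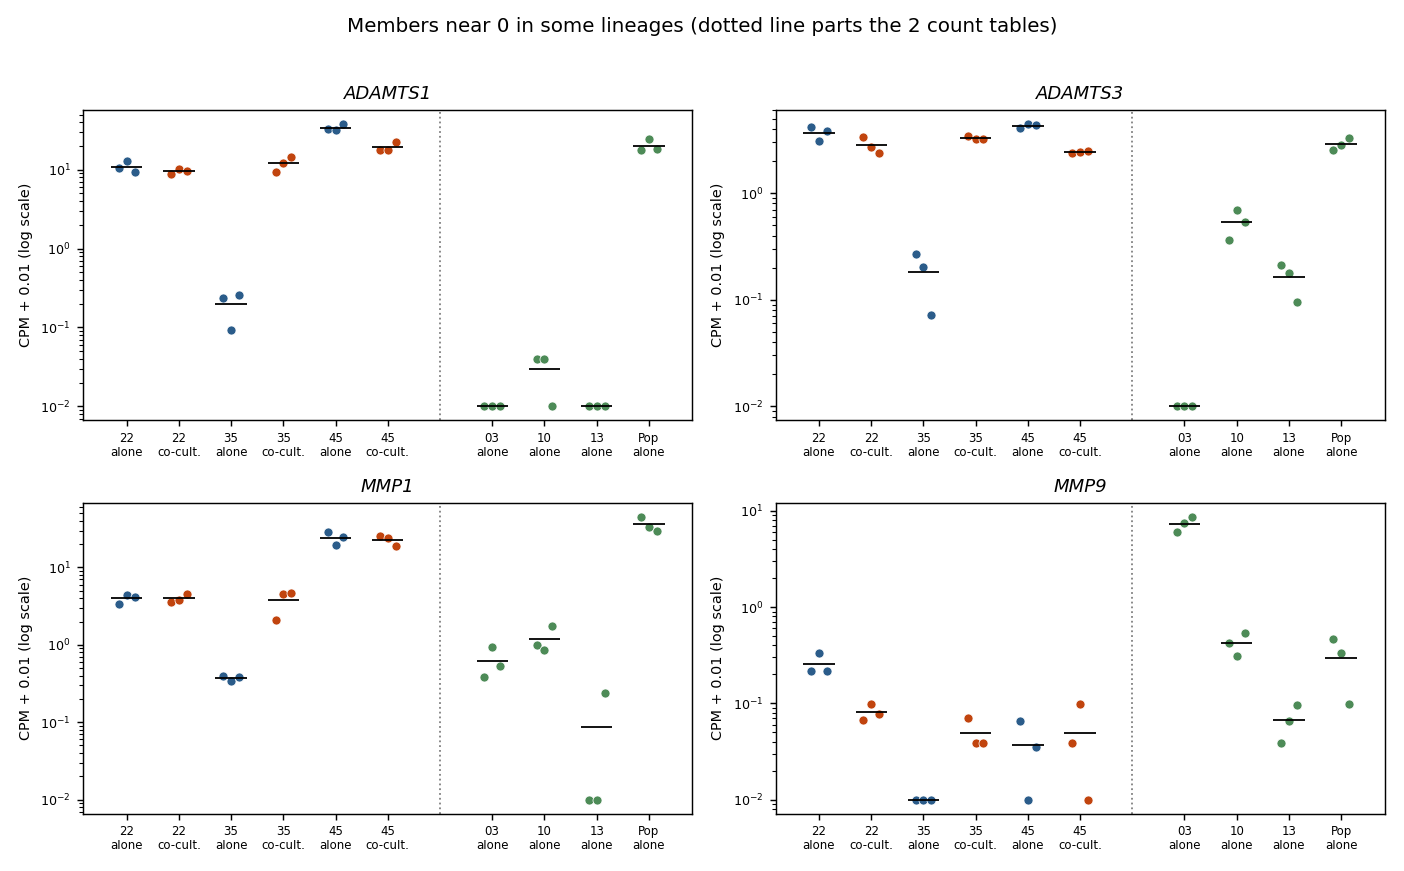
CPM + 0.01 on a log axis for ADAMTS1, ADAMTS3, MMP1 and MMP9 in each library, with the group mean as a bar; points at 0.01 are libraries with no count. Within the first table ADAMTS1, ADAMTS3 and MMP1 are low in isolated lineage 35 and higher in lineages 22 and 45. Within the second table the same genes are low in lineages 03, 10 and 13 and higher in Pop, and MMP9 stands out in lineage 03, at 7.37 CPM. Levels are not compared between the tables.

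The other described ADAMTS genes fell or did not pass the test. ADAMTS15, an enzyme that cuts versican, lies on chromosome 11 at 130448974-130476641, 20.0 kb from ADAMTS8. It went from 79.4, 76.9 and 73.7 to 54.6, 54.99 and 53.7 CPM in lineage 22 and from 53.1, 53.2 and 44.2 to 30.7, 34.1 and 35.7 CPM in lineage 45. Under label 35 it went from 124, 127 and 142 to 41.3, 39.04 and 41.3 CPM. All 3 falls are clear of overlap (-0.49 ± 0.0822, -1.69 ± 0.08397 and -0.58 ± 0.0833 in lineages 22, 35 and 45, with adjusted p = 4.52e-05, 8.27e-13 and 1.89e-05, edgeR). ADAMTS15 and TIMP1 were the 2 members of 29 tested that fell in all 3 lineages, and no member rose in all 3. Over all genes tested, 10.6% fell and 7.77% rose in all 3.

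ADAMTS9, which cuts versican and is needed for primary cilia, went from 11.7, 12.2 and 8.68 to 0.894, 1.72 and 1.73 CPM under label 35 and from 3.61, 2.73 and 2.798 to 0.947, 0.938 and 1.55 CPM in lineage 22. In lineage 45 it stood at 3.11, 2.92 and 3.605 and 3.08, 2.08 and 3.11 CPM, and those groups overlap. The log2 fold changes were -2.90 ± 0.23, -1.42 ± 0.25 and -0.22 ± 0.23 (adjusted p = 1.43e-09, 8.80e-05 and 0.458, edgeR). ADAMTS16 showed the same order: 19.4, 20.5 and 18.4 against 11.3, 8.56 and 8.54 CPM in lineage 22, and 19.6, 19.8 and 16.5 against 7.03, 9.17 and 8.03 CPM under label 35. It stood at 9.72 and 10.1 CPM in lineage 45. ADAMTS16 fell by 2.05- and 2.31-fold in the first 2 (adjusted p = 1.14e-06 and 6.07e-08), and the response of lineage 45 differed from both (adjusted p = 0.000276 and 7.53e-06, edgeR).

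ADAMTS6, an enzyme linked to fibrillin microfibrils, followed that order at a wider spread. It went from 4.61, 4.97 and 3.87 to 2.44, 2.55 and 1.51 CPM in lineage 22 and from 12.3, 16.4 and 13.7 to 4.56, 8.13 and 6.91 CPM under label 35. In lineage 45 it ranged over 9.19, 12.9 and 17.8 CPM in isolation and 19.4, 14.4 and 11.5 CPM from co-culture. Its log2 fold changes were -1.03 ± 0.30, -1.11 ± 0.26 and 0.18 ± 0.25 (adjusted p = 0.0069, 0.00114 and 0.586, edgeR). ADAMTS7 and ADAMTS12 are close relatives that cut cartilage oligomeric matrix protein. ADAMTS7 went from 6.197, 6.06 and 7.82 to 1.81, 1.495 and 1.85 CPM in lineage 22 (-1.96 ± 0.20 (SE), adjusted p = 1.92e-07) and from 2.51 to 0.972 CPM in lineage 45 (-1.37 ± 0.22 (SE), adjusted p = 7.04e-05, edgeR). It stood at 0.761 and 0.8401 CPM under label 35.

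ADAMTS12 went from 72.5, 77.8 and 49.9 to 23.8, 27.6 and 25.3 CPM under label 35 (-1.38 ± 0.14 (SE), adjusted p = 9.38e-08, edgeR). In lineage 22 it went from 31.7, 29.1 and 28.7 to 20.3, 24.2 and 25.1 CPM, a fall (-0.36 ± 0.14 (SE), adjusted p = 0.038, edgeR) that was lost in 8 of 12 alternatives, among them the leaving out of any isolation library of lineage 22 or of its co-culture replicate 1 or 2 (log2 fold change -0.42 to -0.27, adjusted p up to 0.151). The libraries of lineage 45 overlap, at means of 19.01 and 16.8 CPM. ADAMTS17 went from a mean of 2.64 to 1.44 CPM in lineage 22 without overlap. Its libraries overlapped under label 35 (1.55 and 1.30 CPM) and in lineage 45 (1.27 and 1.53 CPM).

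ADAMTS14, a procollagen N-proteinase like ADAMTS3, fell in lineage 22 and under label 35, where ADAMTS3 rose. It went from 1.204, 0.673 and 0.758 to 0.0861, 0 and 0.0336 CPM in lineage 22 (4 counts left in all) and from 0.936, 1.14 and 1.49 to 0.0894, 0.0859 and 0 CPM under label 35 (6 counts left). In lineage 45 it stood at 1.01, 1.05 and 0.951 and 0.877, 0.263 and 0.566 CPM. The fitted log2 fold changes were -4.32 ± 0.63, -4.27 ± 0.56 and -0.81 ± 0.39 (adjusted p = 1.02e-05, 1.52e-06 and 0.102, edgeR). Its promoter is shown because ADAMTS14 also stands out in lineage 03; it is the window chr10:70672256-70672505 on the plus strand (RefSeq, GRCh38.p14), 5′ to 3′, with GC boxes in capitals.
ADAMTS14: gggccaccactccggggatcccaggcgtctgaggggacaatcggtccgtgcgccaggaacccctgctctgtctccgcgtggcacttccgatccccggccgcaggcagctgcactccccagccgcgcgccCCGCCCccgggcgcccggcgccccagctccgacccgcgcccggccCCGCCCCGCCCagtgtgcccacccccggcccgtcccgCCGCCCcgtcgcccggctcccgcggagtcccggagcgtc
This window holds 35 CpG dinucleotides and 4 GC boxes, more CpG than the TIMP3 or MMP14 windows.

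**Figure D3:**
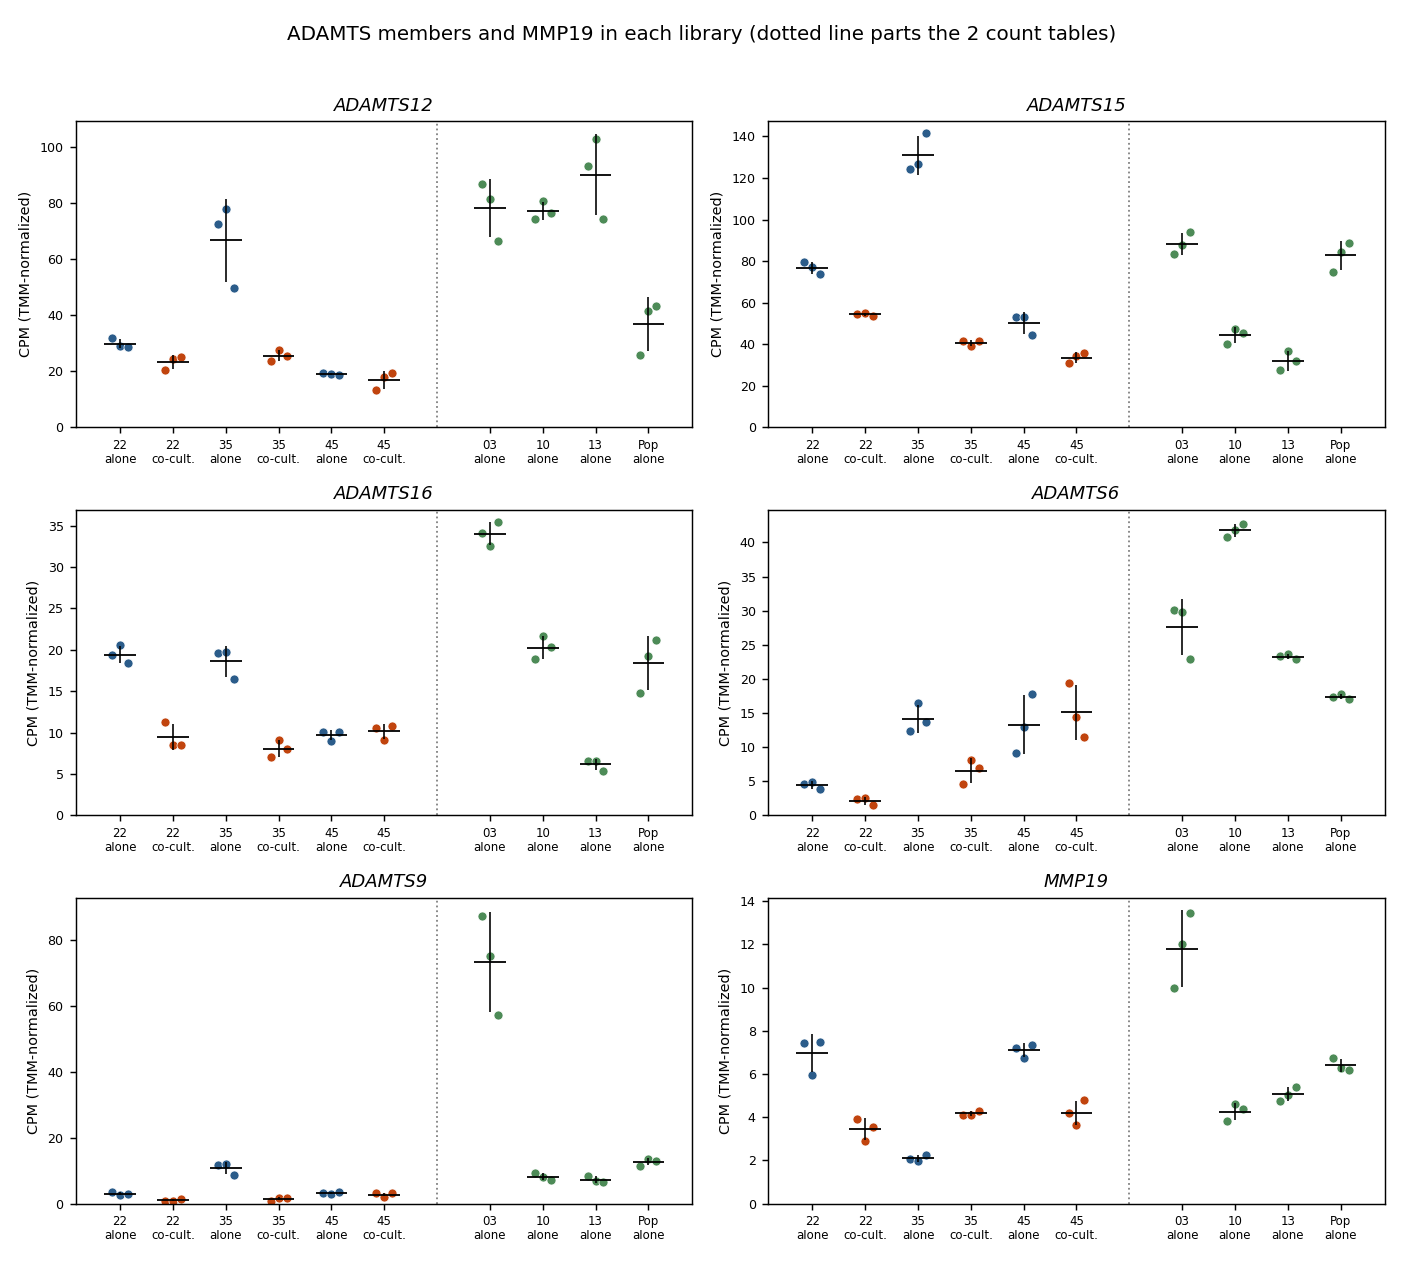
CPM (linear axis from 0) of ADAMTS12, ADAMTS15, ADAMTS16, ADAMTS6, ADAMTS9 and MMP19 in each library, with group mean (bar) and ± 1 SD (line). ADAMTS15 is lower from co-culture under all 3 labels, and ADAMTS9 reaches 73.2 CPM in lineage 03.

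Counted over the 29 members that passed the count filter (of 45), 1 rose and 16 fell in lineage 22, where 56.9% of all genes were called, 27% higher and 30% lower. Under label 35, 10 rose and 10 fell (65.5% of all genes called, 32.7% higher and 32.9% lower). In lineage 45, 2 rose and 10 fell (41.8% of all genes called, 18.6% higher and 23.2% lower). The median log2 fold change of these members was -0.49, -0.18 and -0.27, beside -0.04, 0.01 and -0.03 over all genes. Of 13 ADAMTS genes tested, 10 fell and 0 rose in lineage 22, 7 fell and 3 rose under label 35, and 5 fell and 0 rose in lineage 45. Of 12 MMPs, 4 fell and 1 rose, 2 fell and 4 rose, and 4 fell and 2 rose in the same order. A count filter keeps genes that are high in at least 1 group, so these counts describe the tested members and do not stand for all 45. Without the libraries labelled 35, fitted anew, 2 members rose and 16 fell of 28 tested in lineage 22, and 2 rose and 10 fell in lineage 45.

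**Figure D4:**
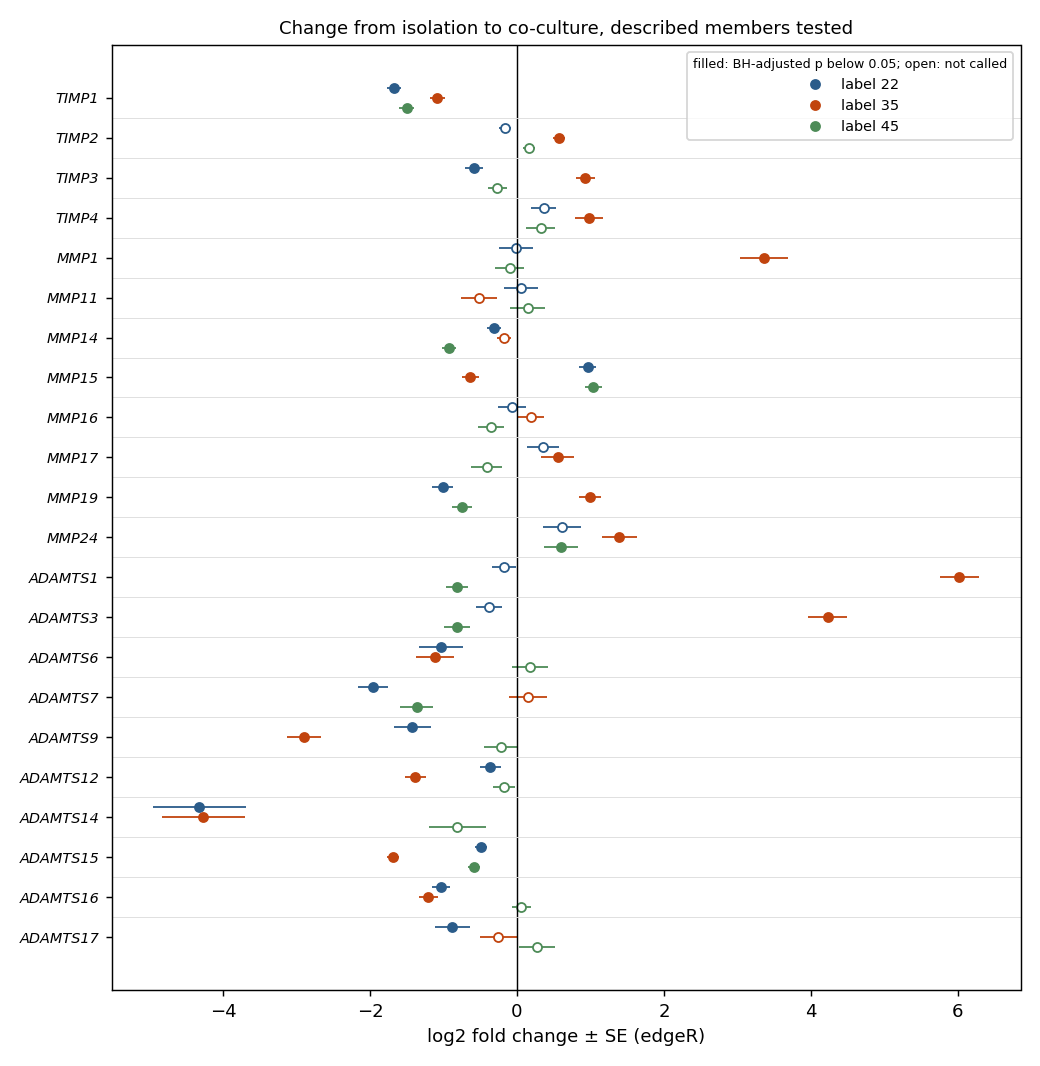
Log2 fold change from edgeR (± SE derived from its F statistic), from isolation to co-culture, of the 22 described members tested in the first table, by label. Filled points have an adjusted p below 0.05. TIMP1 and ADAMTS15 lie left of 0 under all 3 labels, while ADAMTS1, ADAMTS3 and MMP1 lie far right under label 35 only.

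The difference in response was tested as well, in comparisons that share lineages. Responses of lineages 22 and 35 differed in 15 of 29 members (49.6% of all genes called), those of 35 and 45 in 19 (42.3%) and those of 22 and 45 in 7 (17.3%). Leaving out replicate 1 of isolated lineage 22, or replicate 1 of isolated lineage 45, left 4 members in the last comparison. ADAMTS14, ADAMTS16 and MMP14 differed between lineages 22 and 45 in every alternative run.

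The isolated lineages differed in most of the 29 tested members. Lineage 22 was higher than lineage 35 in 18 members and lower in 6 (63.6% of all genes called, 32.2% higher and 31.4% lower). It was higher than lineage 45 in 12 and lower in 5 (38.4% of all genes called, 18.6% higher and 19.8% lower). Lineage 35 was higher than lineage 45 in 6 and lower in 14 (51.8% of all genes called, 24.3% higher and 27.6% lower). All 4 TIMPs were higher in isolated lineage 22 than in isolated lineage 35, by 1.65-fold for TIMP1, 2.33-fold for TIMP2, 3.06-fold for TIMP3 and 2.32-fold for TIMP4, with adjusted p from 6.70e-11 to 8.67e-06 (edgeR). ADAMTS12 and ADAMTS15 had their highest mean of the 6 groups in isolated lineage 35, 3.51- and 2.61-fold above lineage 45. From co-culture, 9 members were higher and 3 lower in lineage 22 than under label 35 (31.1% of all genes called, 15.6% higher and 15.5% lower). Against lineage 45, 10 were higher and 5 lower in lineage 22 (25.2% of all genes called, 13.2% higher and 12% lower), and 4 higher and 6 lower under label 35 (12.7% of all genes called, 6.42% higher and 6.28% lower). TIMP1 then passed the test in none of the 3 pairs (adjusted p = 0.34, 0.816 and 0.31, edgeR), while MMP1 remained 5.71-fold higher in lineage 45 than in lineage 22 and 6.04-fold higher than under label 35.

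In the other table, lineages 03, 10 and 13 were compared with Pop, so the 3 comparisons share the Pop libraries, and adjusted p-values are over 14638 genes. MMP1 was low in all 3 lineages. It stood at 44.8, 33.7 and 29.4 CPM in Pop, 0.369, 0.916 and 0.516 CPM in lineage 03, 0.982, 0.841 and 1.76 CPM in lineage 10 and 0, 0 and 0.229 CPM in lineage 13, with no overlap between Pop and any of them. The log2 fold change was -5.86 ± 0.37 (SE), adjusted p = 4.39e-08 in lineage 03, -4.91 ± 0.34 (SE), adjusted p = 1.52e-07 in lineage 10 and -8.82 ± 0.49 (SE), adjusted p = 1.57e-08 in lineage 13 (edgeR). All 8 counts of lineage 13 came from replicate 3, and without that library the fitted value was -13.22 against a group with no count.

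ADAMTS1 was at or near 0 in the same lineages. Pop held 17.5, 24.3 and 18.1 CPM (2016 counts), lineages 03 and 13 had no count in any library, and lineage 10 had 2 counts. ADAMTS1 was thus at least 627-fold lower in lineage 03 and at least 703-fold lower in lineage 13 (floor of 3 counts over the group), and 994-fold lower in lineage 10 with a 95% counting interval of 275 to 8212. ADAMTS3 stood at 2.52, 2.84 and 3.302 CPM in Pop and at 0 counts in lineage 03, at least 90.5-fold lower. It held 0.357, 0.6904 and 0.526 CPM in lineage 10 (-2.45 ± 0.27 (SE), adjusted p = 2.50e-05) and 0.203, 0.167 and 0.0858 CPM in lineage 13 (-4.22 ± 0.32 (SE), adjusted p = 1.13e-06, edgeR). The intervals and floors cover counting error only. The 6 endothelial markers summed to 84.2 to 98.8 CPM in Pop, 13.7 to 17.9 CPM in lineage 03, 33.0 to 36.2 CPM in lineage 10 and 7.24 to 9.45 CPM in lineage 13, with CDH5 below 0.1 CPM in all 4 and 3 to 5 of the 6 below 1 CPM. ESAM was 5.66-, 2.63- and 11.9-fold lower than in Pop in lineages 03, 10 and 13, and PECAM1 5.50-, 27.35- and 44.35-fold lower (edgeR). KDR was 10.05- and 3.015-fold lower in lineages 03 and 13 and did not pass the test in lineage 10. The 7 leukocyte markers summed to 205 to 234 CPM in Pop, 210.1 to 232 CPM in lineage 03, 79.3 to 91.3 CPM in lineage 10 and 81.7 to 108 CPM in lineage 13. CD14 was 4.35-fold higher than in Pop in lineage 03 and 5.09-fold lower in lineage 13 (edgeR). LAPTM5 was 7.48- and 6.18-fold lower in lineages 10 and 13. CD68 was 1.20-fold higher in lineage 03 and 1.63- and 1.46-fold lower in lineages 10 and 13. The part of either list in these values was not tested.

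Lineage 03 held more of several other proteases. MMP9, the gelatinase that cuts denatured collagen and type IV collagen, stood at 5.98, 7.51 and 8.62 CPM in lineage 03 and 0.456, 0.322 and 0.0892 CPM in Pop (4.66 ± 0.32 (SE), adjusted p = 1.08e-07, edgeR). It held 0.416, 0.3002 and 0.526 CPM in lineage 10, which overlaps Pop, and 0.0291, 0.0556 and 0.0858 CPM in lineage 13 (6 counts; -2.27 ± 0.63 (SE), adjusted p = 0.00945, edgeR). MMP9 was not above 0.245 CPM in any group of the first table, where it did not pass the filter. MMP14 stood at 1220, 1153 and 994 CPM in lineage 03, 408, 406 and 434 CPM in lineage 10, 502, 498 and 564 CPM in lineage 13 and 640.1, 618 and 605 CPM in Pop. MMP14 was 1.81-fold higher than Pop in lineage 03 (adjusted p = 3.40e-06) and 1.49-fold lower in lineage 10 (adjusted p = 0.000127, edgeR). The difference in lineage 13 (-0.25 ± 0.0852 (SE), adjusted p = 0.0276, edgeR) was lost without replicate 1 or 2 of lineage 13 or replicate 2 of Pop, and with these 2 groups fitted alone (log2 fold change -0.31 to -0.22, adjusted p up to 0.103 over all alternatives).

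ADAMTS9 and ADAMTS14 showed the same excess in lineage 03. ADAMTS9 stood at 87.2, 75.2 and 57.2 CPM there, 9.43, 8.11 and 7.15 CPM in lineage 10, 8.34, 7.003 and 6.47 CPM in lineage 13 and 11.5, 13.6 and 12.9 CPM in Pop. Every library of lineage 03 exceeded every other library of the table, and those of lineages 10 and 13 lay below Pop (log2 fold change 2.53 ± 0.15, -0.62 ± 0.16 and -0.80 ± 0.16 in lineages 03, 10 and 13, adjusted p = 3.11e-08, 0.0065 and 0.0011, edgeR). ADAMTS14 stood at 9.26, 5.91 and 6.404 CPM in lineage 03 and 0.882, 1.82 and 3.09 CPM in Pop (1.89 ± 0.41 (SE), adjusted p = 0.00188, edgeR). Its means were 0.612 CPM in lineage 10 and 1.41 CPM in lineage 13, and both groups overlap Pop. The difference in lineage 10 passed the test (-1.65 ± 0.51 (SE), adjusted p = 0.0182, edgeR) but was lost without replicate 1 or 3 of lineage 10 or replicate 3 of Pop (log2 fold change -2.23 to -1.13, adjusted p up to 0.0943 over all alternatives), and that in lineage 13 did not (adjusted p = 0.444). MMP19 followed, at 9.96, 12 and 13.5 CPM in lineage 03 against 6.75, 6.27 and 6.19 CPM in Pop (0.89 ± 0.12 (SE), adjusted p = 5.48e-05, edgeR) and at means of 4.26 and 5.07 CPM in lineages 10 and 13. It was lower than Pop in lineage 10 (adjusted p = 0.00236), and the call in lineage 13 (adjusted p = 0.0435, edgeR) was lost without the count filter, and without replicate 1 or 2 of lineage 13 or any replicate of Pop (adjusted p up to 0.13).

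MMP16 and TIMP3 were lowest in lineages 13 and 10. MMP16 stood at 3.68, 5.8 and 6.87 CPM in Pop, 2.36, 2.37 and 2.31 CPM in lineage 03, 2.05, 1.65 and 2.11 CPM in lineage 10 and 0.378, 0.2501 and 0.401 CPM in lineage 13. All 3 lineages lay below Pop (-1.22 ± 0.21, -1.49 ± 0.21 and -3.98 ± 0.26, adjusted p = 0.000325, 8.95e-05 and 8.19e-08, edgeR). TIMP3 stood at 288, 287 and 418 CPM in Pop, 309, 304 and 273 CPM in lineage 03, 48.1, 68.7 and 66.6 CPM in lineage 10 and 102, 128 and 103 CPM in lineage 13. Lineage 03 overlaps Pop, and TIMP3 was 5.41-fold lower in lineage 10 (adjusted p = 1.65e-07) and 2.98-fold lower in lineage 13 (adjusted p = 4.81e-06, edgeR). TIMP1 differed from Pop by the test in lineage 10 alone, at 257 ± 8.704 against 371 ± 29.03 CPM (SD, n = 3; log2 fold change -0.53, adjusted p = 0.000303, edgeR). TIMP2 was 1.53-fold higher in lineage 03 (adjusted p = 1.59e-05), and was called higher in lineage 13 (log2 fold change 0.22, adjusted p = 0.0269, edgeR). The call in lineage 13 was lost without replicate 1 or 2 of lineage 13 or of Pop, and with these 2 groups fitted alone (adjusted p up to 0.0735).

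ADAMTS12 was higher than Pop in all 3 lineages, and ADAMTS6 as well. ADAMTS12 stood at 86.8, 81.5 and 66.5 CPM in lineage 03, 74.3, 80.8 and 76.3 CPM in lineage 10, 93.3, 103 and 74.3 CPM in lineage 13 and 25.7, 41.3 and 43.4 CPM in Pop. Replicate 1 of Pop is the lowest library there; the log2 fold changes of 1.09, 1.07 and 1.29 became 0.88, 0.86 and 1.07 without it, with adjusted p at or below 0.000197 (edgeR). ADAMTS6 stood at 30.1, 29.8 and 22.9 CPM in lineage 03, 40.8, 41.8 and 42.7 CPM in lineage 10, 23.3, 23.6 and 22.9 CPM in lineage 13 and 17.4, 17.8 and 17.04 CPM in Pop, with no overlap between Pop and the lineages. Its log2 fold changes were 0.66 ± 0.0958, 1.26 ± 0.0955 and 0.42 ± 0.0958 (adjusted p = 7.91e-05, 3.92e-07 and 0.00286, edgeR). MMP11 was also higher in all 3, at means of 3.64, 2.38 and 3.14 CPM against 1.35 CPM in Pop (adjusted p = 2.87e-05, 0.0032 and 0.000127, edgeR).

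ADAMTS15 and ADAMTS16 were lowest in lineage 13. ADAMTS15 stood at 83.4, 87.6 and 93.8 CPM in lineage 03, 40.3, 47.4 and 45.5 CPM in lineage 10, 27.3, 36.9 and 31.9 CPM in lineage 13 and 74.8, 84.5 and 88.8 CPM in Pop. Lineage 03 overlaps Pop, and ADAMTS15 was 1.86- and 2.58-fold lower in lineages 10 and 13 (adjusted p = 2.31e-05 and 4.56e-07, edgeR). ADAMTS16 stood at 34.1, 32.6 and 35.4 CPM in lineage 03, 18.8, 21.6 and 20.3 CPM in lineage 10, 6.51, 6.61 and 5.38 CPM in lineage 13 and 14.8, 19.3 and 21.1 CPM in Pop. It was 1.84-fold higher in lineage 03 and 2.99-fold lower in lineage 13 (adjusted p = 4.68e-05 and 5.51e-07, edgeR), and lineage 10 overlaps Pop. Means of the remaining described members follow, in CPM for lineages 03, 10, 13 and Pop in that order. They were 9.195, 5.55, 4.93 and 5.375 for MMP15, 3.49, 1.27, 2.595 and 1.67 for MMP17, and 4.52, 1.07, 1.73 and 2.665 for MMP24. For ADAMTS7 they were 3.06, 0.779, 1.36 and 3.22, for ADAMTS17 3.535, 1.85, 3.60 and 1.93, and for TIMP4 1.87, 0.827, 0.897 and 1.27.

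**Figure D5:**
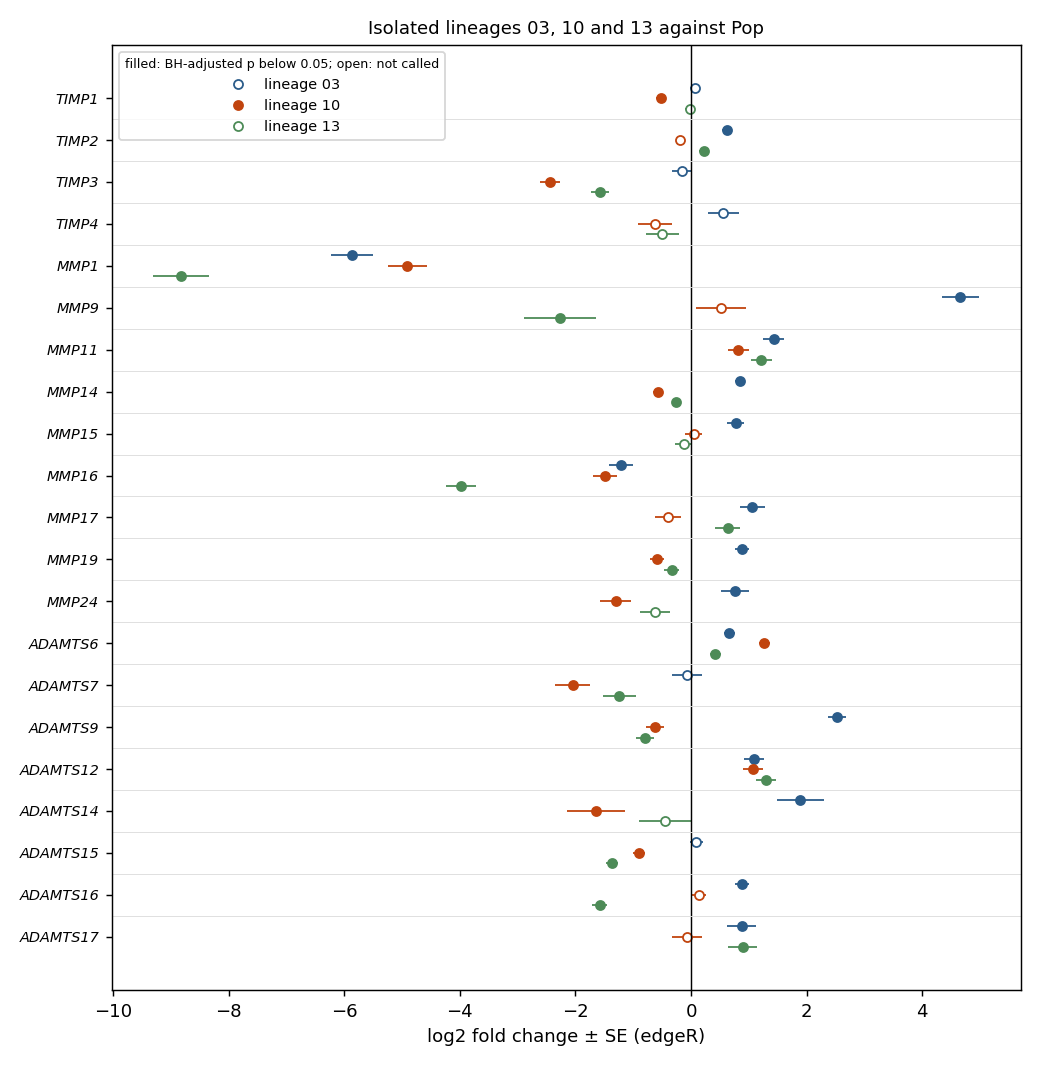
Log2 fold change from edgeR (± SE derived from its F statistic) of lineages 03, 10 and 13 against Pop in isolation for the described members with counts in all 4 groups (ADAMTS1 and ADAMTS3 are left out, since groups had 0 counts). Filled points have an adjusted p below 0.05. MMP1 lies far left in all 3 lineages, and MMP9 and ADAMTS9 lie right in lineage 03.

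Of the 26 members that passed the filter in this table, 15 were higher and 4 lower than Pop in lineage 03 (48.7% of all genes called, 23.2% higher and 25.5% lower). In lineage 10, 3 were higher and 14 lower (42.3% of all genes called, 18.8% higher and 23.5% lower), and in lineage 13, 6 higher and 13 lower (45.2% of all genes called, 21% higher and 24.2% lower). Median log2 fold changes were 0.71, -0.58 and -0.47, beside -0.03, -0.02 and -0.01 over all genes. Without replicate 1 of Pop the counts were 15 higher and 5 lower, 3 higher and 16 lower, and 4 higher and 14 lower, of 28 members tested. Against each other, lineage 03 exceeded lineage 10 in 17 members and fell below it in 2 (51.4% of all genes called, 26.4% higher and 25% lower). It exceeded lineage 13 in 16 and fell below it in 1 (53.2% of all genes called, 26.1% higher and 27.1% lower). Lineage 10 was higher than lineage 13 in 7 members and lower in 6 (34.6% of all genes called, 16.6% higher and 18% lower). MMP14 was 2.697-fold higher in lineage 03 than in lineage 10 and 2.15-fold higher than in lineage 13 (adjusted p = 2.46e-08 and 2.20e-07, edgeR).

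Lists of related genes were counted in the same fits, in which 27% of all genes were called higher and 30% lower in lineage 22, 32.7% higher and 32.9% lower under label 35 and 18.6% higher and 23.2% lower in lineage 45. List counts near these shares are no result about a list. Among proteases that activate or work beside MMPs, such as furin, plasminogen activators and cathepsins, 3 rose and 10 fell of 18 tested in lineage 22, 8 rose and 5 fell under label 35, and 3 rose and 8 fell in lineage 45. Their median log2 fold change was -0.74, 0.24 and -0.36, beside -0.04, 0.01 and -0.03 over all genes. BMP1, the procollagen C-proteinase, fell in all 3 (log2 fold change -1.50, -1.23 and -1.04, adjusted p = 4.73e-11, 8.80e-11 and 1.22e-08, edgeR). FURIN, which removes the propeptide of MMP14 and of ADAMTS enzymes, fell under label 35 (log2 fold change -2.68, adjusted p = 7.56e-16, edgeR). Of 10 ADAM genes, 1 rose and 4 fell, 5 rose and 2 fell, and 1 rose and 4 fell in lineages 22, 35 and 45 (medians -0.19, 0.09 and -0.22). ADAM8, a sheddase of leukocytes and tumour cells, fell in lineages 22 and 45 (-0.66 and -1.05, adjusted p = 0.00105 and 3.45e-05) and rose under label 35 (1.25, adjusted p = 1.23e-06, edgeR).

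Of 12 ADAMTS-like genes and other protease inhibitors, 2 rose and 8 fell in lineage 22, 5 rose and 5 fell under label 35, and 2 rose and 6 fell in lineage 45 (medians -0.58, -0.07 and -0.52), beside the 56.9%, 65.5% and 41.8% of all genes called in either direction. Of 9 matrix substrates tested (of 20 listed), 1 rose and 4 fell, 1 rose and 3 fell, and 1 rose and 3 fell (medians -0.57, -0.37 and 0.17). THBS1, which encodes thrombospondin 1, fell in all 3 (-0.57, -2.35 and -1.03, adjusted p = 5.48e-05, 9.81e-14 and 1.20e-07, edgeR). Among 14 AP-1, ETS and RUNX transcription factor genes, 5 rose and 1 fell, 9 rose and 3 fell, and 5 rose and 5 fell (medians 0.07, 0.42 and 0.09). RUNX2, a regulator of bone formation, fell in all 3 (-1.12, -1.45 and -0.84, adjusted p = 6.43e-08, 3.10e-10 and 5.01e-06), and JUND rose in all 3 (0.87, 1.39 and 0.72, adjusted p = 5.76e-07, 2.28e-10 and 1.18e-05, edgeR).

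Against Pop, 23.2% of all genes were called higher and 25.5% lower in lineage 03, 18.8% higher and 23.5% lower in lineage 10 and 21% higher and 24.2% lower in lineage 13. There, 9 of 16 activators and partner proteases were higher and 3 lower in lineage 03, 3 higher and 9 lower in lineage 10, and 1 higher and 12 lower in lineage 13 (median log2 fold changes 0.38, -0.36 and -0.52). CTSS, or cathepsin S, was higher in lineage 03 (2.87, adjusted p = 3.53e-10) and lower in lineage 13 (-1.78, adjusted p = 6.59e-08, edgeR). The 11 ADAMTS-like genes and inhibitors tested gave 7 higher and 2 lower, 1 higher and 5 lower, and 0 higher and 6 lower (medians 0.71, -0.03 and -0.27). SERPINE2, or protease nexin 1, was lower in lineage 03 (-6.50, adjusted p = 8.51e-12, edgeR). Of 9 substrates, 0 were higher and 4 lower in lineage 03, 0 higher and 4 lower in lineage 10, and 1 higher and 6 lower in lineage 13 (medians -0.44, -0.34 and -0.93). TNC, which encodes tenascin C, was lower in all 3 (-0.59, -2.66 and -1.45, adjusted p = 0.00467, 4.40e-08 and 4.99e-06, edgeR). Of 10 ADAM genes, 5 were higher and 2 lower, 3 higher and 5 lower, and 2 higher and 5 lower (medians 0.04, -0.14 and -0.39). The 14 AP-1, ETS and RUNX genes gave 6 higher and 1 lower, 4 higher and 4 lower, and 3 higher and 5 lower (medians 0.21, -0.06 and -0.10).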

How the data were processed

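Strand-specific mRNA libraries from 500 ng RNA were read as pairs of 75 nt on a NextSeq550Dx, per the labels' protocols. STAR 2.6.1d, Salmon 1.4.0 and GRCh38 (hg38) are named per the submitters' processing notes; annotation, trimming, strand setting and filters are not given in the sources used here. The authors deposited length-scaled estimated counts per gene in 2 tables, made separately and not normalized for depth, per the file names and values. The 2 tables were therefore tested apart.

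Counts were rounded and fitted in edgeR 4.0.16 (R 4.3.3, limma 3.58.1): filterByExpr, TMM, robust quasi-likelihood over all groups of a table, 18 comparisons, Benjamini-Hochberg adjustment over all genes tested, calls at 0.05. The common dispersion amounts to a coefficient of variation of 10.4%. The SE beside each log2 fold change is the absolute log2 fold change divided by the square root of the quasi-likelihood F statistic. It is not an edgeR output, and it is unreliable where a change is near 0 or a group has few counts. DESeq2 1.42.0, RLE scaling, no filter, compared groups alone, a replicate block and leaving out each library were alternatives, and leaving out the libraries labelled 35 was chosen after seeing the data. The fit was also run on simulated counts in which only a chosen set of genes changed, and no result here rests on that run. Same-numbered samples deviated together (correlation above 0.1 for each of the 3 numbers) only between lineages 22 and 45 from co-culture (0.360, 0.253 and 0.166), so numbers were otherwise not taken as pairs.

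The members, lists and tests were chosen with earlier results of these data known. Members with a group mean of at least 1 CPM are described, and those of at least 5 CPM in a table's highest group that were called at 2-fold or more are given by library; from each list, genes among the 3 of smallest p in a comparison are named. Further genes, and ADAMTS3 and ADAMTS14, were given by library after their values were seen. Gene positions and lengths are from GENCODE v29 (GRCh38), and promoters from RefSeq (GRCh38.p14). No column lacked a sample.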

Additional observations from a re-analysis of the deposited data

Results flagged for a closer look

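A change in co-culture that differed between lineages by at least 2-fold, by the test of the difference itself (edgeR, adjusted over all genes), singles out the following members; each value is a difference of log2 fold changes. Between lineages 22 and 35, the response of lineage 22 was lower for ADAMTS1 (-6.20), ADAMTS3 (-4.61), MMP1 (-3.37), ADAMTS7 (-2.11), MMP19 (-2.003) and TIMP3 (-1.52). It was higher for MMP15 (1.60), ADAMTS9 (1.48), ADAMTS15 (1.20) and ADAMTS12 (1.02). Between lineages 35 and 45, the response under label 35 was higher for ADAMTS1 (6.84), ADAMTS3 (5.05), MMP1 (3.46), MMP19 (1.75), ADAMTS7 (1.51) and TIMP3 (1.20). It was lower for ADAMTS14 (-3.46), ADAMTS9 (-2.68), MMP15 (-1.68), ADAMTS6 (-1.29), ADAMTS16 (-1.27), ADAMTS12 (-1.21) and ADAMTS15 (-1.11). All of these rest on the libraries labelled 35, both isolated and from co-culture. Those from co-culture resembled isolated lineage 45 more than isolated lineage 35. Isolated lineage 35 itself correlated at only 0.921 to 0.942 with every other group of its table. The part of either in the values was not tested.

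Between lineages 22 and 45, the response of lineage 22 was lower for ADAMTS14 (-3.51), ADAMTS6 (-1.21), ADAMTS9 (-1.20), ADAMTS17 (-1.15) and ADAMTS16 (-1.10). The calls for ADAMTS14 and ADAMTS16 held without each library in turn. That for ADAMTS9 was lost without isolation replicate 1 or co-culture replicate 2 of lineage 22 (adjusted p up to 0.0542, edgeR). That for ADAMTS17 was lost without isolation replicate 3 or co-culture replicate 1 of lineage 22, isolation replicate 1 or co-culture replicate 3 of lineage 45 (up to 0.0724). The difference in ADAMTS6 was lost in 9 of 18 alternatives, among them leaving out replicate 1 or 2 of either isolated lineage, replicate 1 or 3 of lineage 22 from co-culture and replicate 1 or 2 of lineage 45 from co-culture (adjusted p up to 0.108).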

How the results depend on the processing

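Over the 18 comparisons, 256 values of described members were called and 146 were not. Over 3091 alternative values of the called ones, 2954 kept direction and call, 137 kept direction but lost the call, and 0 reversed; 31 of the 256 calls were lost in at least 1 alternative. Of the 146 values not called, 28 were called in at least 1 alternative and 40 changed sign in at least 1. The number of called members stayed within 1.5 times its main value under every alternative except in the difference in response between lineages 22 and 45: 7 members, and 4 to 7 when a library was left out, with 4 without replicate 1 of isolated lineage 22 or of isolated lineage 45; fewer samples were fitted there, and the cause was not tested. A minimum of 5 or 0.5 CPM in place of 1 would describe 17 or 30 members, and CPM without TMM 25. RLE in place of TMM moved the median of all genes by at most 0.0367 on the log2 scale.

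With the replicate number as a block, the counts of called members were 18, 21 and 11 for co-culture in lineages 22, 35 and 45 (17, 20 and 12 without) and 19, 17 and 20 against Pop for lineages 03, 10 and 13 (19, 17 and 19 without). Between lineages 22 and 45 from co-culture, the one pair of groups whose replicate numbers deviated together, 15 members were called with and without the block, and no blocked count of the 18 comparisons differed by over 1.5 times. Depth limits the members with few counts: ADAMTS14, with 4 counts in lineage 22 and 6 under label 35 from co-culture, has SEs of 0.63 and 0.56 on the log2 scale, against 0.0996 for TIMP1 in lineage 22.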

Other observations

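Several well-known MMPs were nearly silent in all groups. MMP2, the gelatinase activated through MMP14 and TIMP2, was highest in lineage 03 at 0.224 CPM, MMP7 in lineage 03 at 0.417 CPM, MMP3 in isolated lineage 35 at 0.138 CPM, MMP10 in isolated lineage 45 at 0.0807 CPM and MMP12 there at 0.0167 CPM. The aggrecanases ADAMTS4 and ADAMTS5 reached 0.0477 and 0.101 CPM; ADAMTS5 had counts in 1 library alone, replicate 3 of lineage 22 from co-culture.

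MMP8, the neutrophil collagenase, had 0.742, 0.6095 and 0.529 CPM in isolated lineage 35 and at most 0.09105 CPM in any other library. From co-culture the libraries labelled 35 held 0, 0 and 0.0288 CPM (1 count in all). ADAMTS20 ran the other way under that label, from 0, 0 and 0.0311 to 0.298, 0.229 and 0.259 CPM. MMP28, or epilysin, stood at 0.793, 1.06 and 0.994 CPM in isolated lineage 22 and 0.287, 0.0879 and 0.168 CPM from co-culture, and at 0.392, 0.675 and 0.776 and 0.113, 0 and 0.198 CPM in lineage 45. In the other table it stood at 0.609, 0.586 and 0.387 CPM in Pop, 0.0738, 0.0296 and 0.486 CPM in lineage 03, whose replicate 3 lies within the range of Pop, 0, 0.06004 and 0.0929 CPM in lineage 10 and 0.0872, 0.0278 and 0.0286 CPM in lineage 13. The group means are all below 1 CPM and rest on few counts.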
